A study of Mus musculus with 8 samples.

Results

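A group of 10 genes was followed in purified splenic CD4+ T cells from Pcbp1 fl/fl Cd4-Cre and wild-type mice. Antigen-experienced T cells carry these genes at higher levels than naive T cells. The genes were taken by symbol from the count tables, and all 10 of 10 were found among 24421 gene rows and passed the filter on low counts, which left 13333 genes. They are the calcium-binding S100 genes S100a4, S100a6, S100a10 and S100a11, the galectins Lgals1 and Lgals3, the annexins Anxa1 and Anxa2, the filament gene Vim and the adhesion receptor gene Cd44. The samples are 4 libraries titled E1KO and 4 titled E1WT. The protocol names Pcbp1 fl/fl Cd4-Cre and wild-type mice, and the genotype field writes the wild type as Pcbp1+/+ Cd4-Cre, so by that field the controls carried the Cre too. Pcbp1 codes for the RNA-binding protein hnRNP E1, and Cd4-Cre acts from the double-positive stage of the thymus on, so every T cell that passed that stage is affected and not the CD4+ cells alone. All mice were C57BL/6 males of 6 to 8 weeks by the labels, which do not say whether a library came from 1 animal or from pooled animals. The cells came from spleen through a magnetic kit for naive T cells. Such kits commonly discard cells with much CD44 on the surface, and what this one removed is not given in the labels.

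In every sample the genotype field states the opposite of the title, so libraries are named by title (E1KO, E1WT) and every direction is that of the titles. In CPM, the count of a gene scaled to the gene counts of its library, Pcbp1 stood at 40.6 ± 1.57 in E1KO, against 219 ± 18.2 in E1WT (SD over 4 libraries, as for all such values), which goes with the titles. Some Pcbp1 RNA thus remained in E1KO libraries, at 0.185 of the E1WT mean. Libraries held 28264655 to 36738202 gene counts. Xist, the RNA of the inactive X chromosome, stood at 406 ± 30.4 CPM in E1KO and 1.48 ± 1.06 CPM in E1WT libraries, and the Y-linked Ddx3y at 55.5 ± 2.79 and 106 ± 4.68 CPM, although the labels name males alone. Differences between the titles cannot be told apart from this one. Each E1KO library held both RNAs, Xist at 378 to 433 CPM and Ddx3y at 52.7 to 59.1 CPM, so each held RNA marks of both sexes. Whether animals were pooled was not tested. The T cell markers Cd4, at 869 ± 20.6 and 1001 ± 27.8 CPM, and Cd3e, at 269 and 306 CPM, were high under both titles.

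As background, S100 proteins are small EF-hand proteins that bind calcium and then dock onto partner proteins. Annexins bind acidic phospholipids in the presence of calcium, and galectins bind galactose-containing glycans on cell surfaces. Vimentin is the main intermediate filament of lymphocytes and myeloid cells, and CD44 binds hyaluronan. After a T cell meets antigen and becomes a memory cell, many of these genes are raised together, and several are also abundant in monocytes and macrophages.

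Promoter sequences of 8 of the 10 genes were taken from RefSeq (GRCm38.p6), and those of S100a10 and Lgals1 were not analysed here. Each sequence runs from 250 bases before the transcription start to 50 bases after it. The 4 shown first belong to genes that rose in E1KO libraries, and those of S100a11 and Cd44, which did not pass the test, are shown for contrast. Capitals mark matches on either strand to the AP-1 site TGANTCA, the GC box GGGCGG or the TATA box TATAAA, and none of the matches shown overlaps another.
Lgals3, chr14:47373610-47373909, plus strand: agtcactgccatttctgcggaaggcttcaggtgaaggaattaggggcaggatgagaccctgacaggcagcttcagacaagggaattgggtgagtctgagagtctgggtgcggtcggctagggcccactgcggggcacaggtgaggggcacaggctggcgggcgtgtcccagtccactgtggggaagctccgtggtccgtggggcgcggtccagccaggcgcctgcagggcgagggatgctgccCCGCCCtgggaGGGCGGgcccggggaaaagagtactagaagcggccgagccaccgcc
Anxa1, chr19:20390622-20390921, minus strand: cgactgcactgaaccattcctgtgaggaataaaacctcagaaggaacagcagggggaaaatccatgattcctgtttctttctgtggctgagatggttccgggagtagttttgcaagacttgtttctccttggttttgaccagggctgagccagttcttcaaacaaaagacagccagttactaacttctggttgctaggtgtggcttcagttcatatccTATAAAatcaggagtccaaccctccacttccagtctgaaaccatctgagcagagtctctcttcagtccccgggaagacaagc
Anxa2, chr9:69453433-69453732, plus strand: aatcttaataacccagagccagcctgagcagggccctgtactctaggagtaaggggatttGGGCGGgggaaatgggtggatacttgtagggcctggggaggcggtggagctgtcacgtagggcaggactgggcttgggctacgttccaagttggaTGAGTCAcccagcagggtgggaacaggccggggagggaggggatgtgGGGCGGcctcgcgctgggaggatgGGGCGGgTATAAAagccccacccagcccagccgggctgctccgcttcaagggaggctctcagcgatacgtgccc
Vim, chr2:13574061-13574360, plus strand: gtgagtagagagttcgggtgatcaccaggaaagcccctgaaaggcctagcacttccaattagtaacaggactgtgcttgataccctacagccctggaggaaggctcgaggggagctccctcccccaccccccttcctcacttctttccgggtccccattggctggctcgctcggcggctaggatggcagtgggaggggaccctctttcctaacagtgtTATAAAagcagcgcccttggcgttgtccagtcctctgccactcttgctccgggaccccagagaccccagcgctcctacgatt
S100a11, chr3:93520246-93520545, plus strand: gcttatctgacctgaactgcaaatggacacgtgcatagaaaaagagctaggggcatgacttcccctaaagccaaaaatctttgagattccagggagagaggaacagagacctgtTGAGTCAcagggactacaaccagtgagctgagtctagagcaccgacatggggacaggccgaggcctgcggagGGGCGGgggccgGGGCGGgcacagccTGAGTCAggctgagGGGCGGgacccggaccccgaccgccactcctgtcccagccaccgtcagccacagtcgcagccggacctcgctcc
Cd44, chr2:102901616-102901915, minus strand: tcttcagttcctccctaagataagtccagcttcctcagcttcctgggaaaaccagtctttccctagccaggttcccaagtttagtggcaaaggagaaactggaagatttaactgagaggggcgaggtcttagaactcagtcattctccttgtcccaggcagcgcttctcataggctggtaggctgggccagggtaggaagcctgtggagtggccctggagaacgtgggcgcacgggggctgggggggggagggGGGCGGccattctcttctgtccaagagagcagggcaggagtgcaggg

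The AP-1 site was found in the windows of Anxa2 and S100a11, as against 7.81% of all 32851 promoter entries of the same length. A GC box was found in Lgals3, Anxa2, S100a11 and Cd44 (35.7% of all entries), and a TATA box in Anxa1, Anxa2, Vim and S100a4 (13.6% of all entries). The window of S100a6 held none of the 3. Anxa2, which rose, and S100a11, which did not pass the test, both held AP-1 and GC-box letters. A match describes letters in a window and not a bound site.

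Of the 10 genes 5 rose in E1KO libraries, Lgals1, Lgals3, Anxa1, Anxa2 and Vim, and 0 fell (edgeR quasi-likelihood test, adjusted p under 0.05). At an unadjusted p under 0.05 the counts were also 5 and 0, and DESeq2 called 5 and 0. Over all genes tested 23.3% were called, 12.2% as higher and 11.1% as lower. The 4 S100 genes and Cd44 did not pass. The median log2 fold of the 10 was 0.43, against 0.0065 over all genes tested. In each of the 5 that rose every E1KO library lay above every E1WT one, a separation in that direction that 18.7% of all genes tested showed. Titles were apart in either direction for 27.1% of all genes tested, and 8.44% had every E1KO library below.

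**Figure D1:**
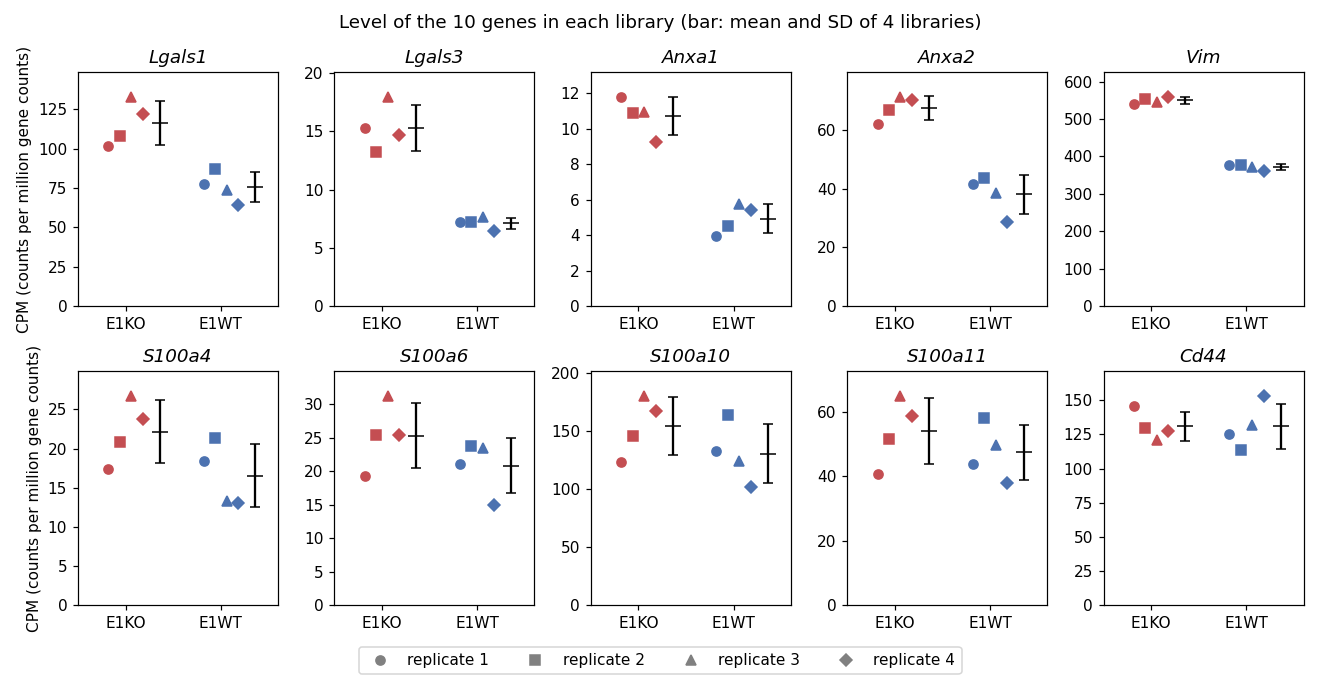
Level of each of the 10 genes in CPM (linear axis from 0) in the 4 E1KO (red) and 4 E1WT (blue) libraries, with a symbol for each replicate number and a black bar for mean and SD. In the upper row (Lgals1, Lgals3, Anxa1, Anxa2, Vim) the titles do not overlap, and in the lower row (4 S100 genes, Cd44) they do.

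The galectins rose by different amounts. Lgals3, a chimera-type galectin made by macrophages and activated T cells, had 15.3, 13.2, 18.0 and 14.7 CPM in E1KO libraries 1 to 4, against 7.18, 7.19, 7.62 and 6.48 CPM in E1WT libraries 1 to 4. The lowest E1KO library was thus well above the highest E1WT one. The log2 fold was 1.04 ± 0.11 (SE, edgeR adjusted p = 7.3e-05), with a 95% interval of the fold from 1.74 to 2.43. Lgals1, whose product binds glycans on T cells and can limit their responses, had 101, 108, 133 and 122 CPM in E1KO libraries, against 77.7, 86.7, 73.9 and 64.2 CPM in E1WT libraries. Again the titles did not overlap, and the gap between them was smaller relative to the level. Its log2 fold was 0.56 ± 0.10 (edgeR adjusted p = 0.0017), with a fold of 1.27 to 1.70 in the 95% interval. Reads of the 2 genes rest on 203 to 553 counts per library for Lgals3 and 2095 to 4087 for Lgals1.

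Both annexins among the 10 rose. Anxa1, which codes for a glucocorticoid-induced mediator that acts through formyl peptide receptors, had 11.8, 10.9, 10.9 and 9.26 CPM in E1KO libraries and 3.96, 4.52, 5.75 and 5.41 CPM in E1WT libraries. It had the lowest level of the 10 and the largest fold, with a log2 fold of 1.06 ± 0.14 (edgeR adjusted p = 0.00028) and a 95% interval of the fold from 1.69 to 2.58. The interval overlaps that of Lgals3, so their order was not resolved. Anxa2, which forms a heterotetramer with S100A10 at the plasma membrane, had 62.1, 66.8, 71.3 and 70.2 CPM in E1KO and 41.6, 43.5, 38.5 and 28.6 CPM in E1WT libraries. The E1WT 4 library was the lowest of the 8, and the titles did not overlap. The log2 fold of Anxa2 was 0.77 ± 0.11 (edgeR adjusted p = 0.00044), and without the E1WT 4 library it was 0.66 and still passed.

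Vim, the most abundant of the 10 in CPM, gave the steadiest values. Its level was 540.2, 554, 546 and 559 CPM in E1KO libraries, against 376, 378, 372 and 361 CPM in E1WT libraries. Libraries of a title differed by at most a factor of 1.05, while the titles differed by a log2 fold of 0.50 ± 0.05 (edgeR adjusted p = 3.1e-05). The 95% interval of its fold was 1.32 to 1.52. Ranked by mean CPM, Vim was number 319 of the 13333 genes tested and Anxa1 number 9062.

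The S100 genes were slightly higher on average in E1KO libraries and overlapped between the titles. S100a4, a binding partner of non-muscle myosin, had 17.3, 20.9, 26.7 and 23.7 CPM in E1KO and 18.4, 21.4, 13.4 and 13.1 CPM in E1WT libraries. Of its 4 E1KO libraries 2 lay above all E1WT ones. The log2 fold was 0.36 ± 0.17 (edgeR adjusted p = 0.15), with a 95% interval of the fold from 0.994 to 1.65. S100a6, known as calcyclin, had 19.3, 25.5, 31.2 and 25.4 CPM in E1KO and 21.1, 23.8, 23.5 and 14.96 CPM in E1WT libraries (log2 fold 0.22 ± 0.16, edgeR adjusted p = 0.35). E1KO 1 lay below 3 of the 4 E1WT libraries. S100a10, the S100 member that has lost calcium binding and pairs with annexin A2, had 123, 146, 180.0 and 167 CPM in E1KO and 133, 164, 124 and 102 CPM in E1WT libraries (log2 fold 0.18 ± 0.14, edgeR adjusted p = 0.38). S100a11, a partner of annexin A1, had 40.7, 51.6, 64.8 and 58.5 CPM in E1KO and 43.8, 58.1, 49.8 and 37.9 CPM in E1WT libraries (log2 fold 0.12 ± 0.14, edgeR adjusted p = 0.58). The 95% intervals of the fold ran from 0.916 to 1.48 for S100a6, from 0.920 to 1.39 for S100a10 and from 0.876 to 1.35 for S100a11. All 4 intervals hold a fold of 1, and those of S100a4 and S100a6 also hold the fold of Vim, 1.42.

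The S100 genes shared an order of the libraries. In all 4 of them E1KO 3 was the highest and E1KO 1 the lowest E1KO library, and E1WT 2 was the highest and E1WT 4 the lowest E1WT one. Lgals1 and Anxa2 had the same highest and lowest libraries, and Vim shared 3 of these 4 positions, with E1KO 4 as its highest E1KO library. In Cd44 the highest and lowest libraries of each title changed places. Deviations from the average library ran with exon length across genes, with Spearman correlations of 0.22, -0.011, -0.32 and -0.23 in E1KO 1 to 4 and 0.082, -0.26, 0.09 and 0.32 in E1WT 1 to 4. The S100 genes have 511 to 1367 bp of annotated exons, Lgals1 has 903 bp, Anxa2 3731 bp, Vim 4743 bp and Cd44 6776 bp. With the exon-length trend removed, the SE of the log2 fold was 0.10 for S100a4, 0.10 for S100a6, 0.062 for S100a10 and 0.060 for S100a11. The log2 folds were then 0.32, 0.15, 0.11 and 0.086 in the same order, and S100a4 passed (edgeR adjusted p = 0.033) while the other three did not (0.29, 0.21 and 0.31). S100a4 also passed without the E1WT 2 library, with a log2 fold of 0.50 (edgeR adjusted p = 0.036).

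**Figure D2:**
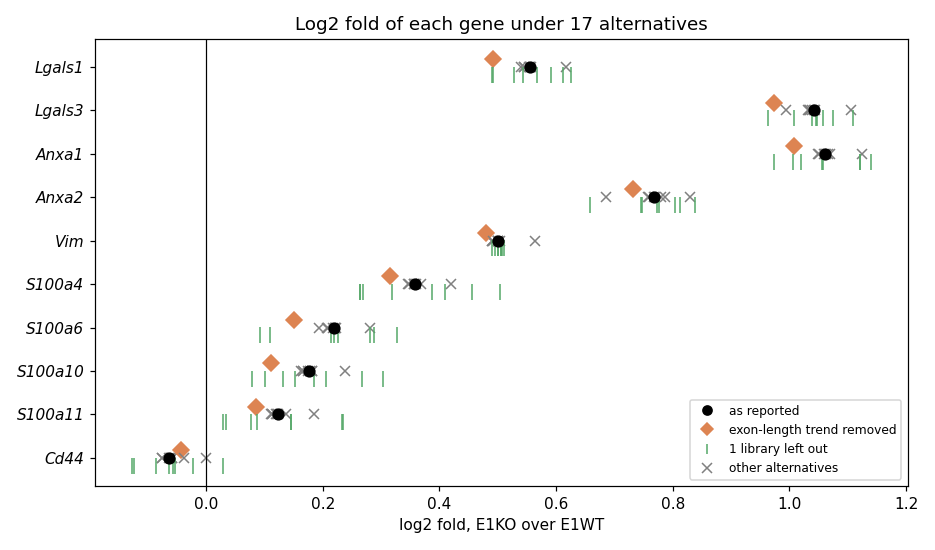
Log2 fold of each of the 10 genes, E1KO over E1WT, as reported (black circles), with the exon-length trend removed (orange diamonds), with 1 library left out (green ticks) and under the other alternatives (grey crosses). Lgals1, Lgals3, Anxa1, Anxa2 and Vim stay at 0.48 or above under all 17 alternatives, the S100 genes spread between 0.030 and 0.50, and Cd44 lies around 0.

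Cd44, the gene most used to tell memory from naive T cells, had 145, 129.6, 121 and 127 CPM in E1KO libraries, against 125, 114, 131.5 and 153 CPM in E1WT libraries. The means were 130.8 ± 10.4 CPM in E1KO and 130.8 ± 16.4 CPM in E1WT, and the highest and the second highest library carried different titles. Its log2 fold was -0.064 ± 0.094 (edgeR adjusted p = 0.67) and its sign turned without the E1WT 4 library (log2 fold 0.030). A 95% interval of the fold from 0.83 to 1.10 leaves out a rise of the size measured for Lgals1, Lgals3, Anxa1, Anxa2 or Vim.

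Per kilobase of annotated exon the 10 genes fell into a high and a low group. In E1KO libraries Lgals1 stood at 129 ± 15.5 CPM per kb, S100a10 at 127 ± 20.6, Vim at 116 ± 1.76 and S100a11 at 106 ± 20.2 (SD, n = 4). Whether these 4 neighbours differ from one another was not tested. S100a4 followed at 38.0 ± 6.83 CPM per kb, then Cd44, S100a6 and Anxa2 at 18.1 to 19.3, Lgals3 at 8.23 and Anxa1 at 3.68. In E1WT libraries S100a10 led at 108 ± 21.2 CPM per kb, with S100a11 at 92.7 ± 16.8, Lgals1 at 83.8 ± 10.3 and Vim at 78.4 ± 1.602, and Anxa1 was again the lowest at 1.69. Exon length counts all annotated transcripts, so genes with many transcript forms are placed too low on this scale. The level of Anxa2 relative to its partner S100a10, per kb, was 0.163, 0.149, 0.129 and 0.136 in E1KO libraries and 0.102, 0.0863, 0.101 and 0.0915 in E1WT libraries. All 4 E1KO ratios were above all 4 E1WT ones, so S100a10 RNA exceeded Anxa2 RNA under both titles and by less in E1KO libraries.

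The rest of the 3 families gave a different picture for each. Counting the 10 genes in, 7 of 10 tested annexins rose and 0 fell in edgeR (7 and 1 at an unadjusted p under 0.05, and 7 and 0 in DESeq2), with a median log2 fold of 0.42. Of the galectins 3 of 8 rose and 1 fell in edgeR (4 and 3 at an unadjusted p under 0.05, and 3 and 1 in DESeq2), with a median of 0.27, and 2 to 4 rose over the 17 alternatives. Of the S100 genes 0 of 10 rose and 1 fell in edgeR (1 and 1 at an unadjusted p under 0.05, and 0 and 1 in DESeq2), with a median of 0.15. Over all genes tested 12.2% rose and 11.1% fell in edgeR. Whether the families differ from one another was not tested. Over the 17 alternatives the number of annexins that rose ran from 3 to 8, and it was 3 with E1KO 1 and E1WT 4 both left out and 5 with the replicate number as a block. Leaving out E1KO 3 alone, or E1WT 4 alone, already ended the calls of Anxa3, Anxa4, Anxa9 and Anxa11, while Anxa1, Anxa2 and Anxa7 kept theirs.

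**Figure D3:**
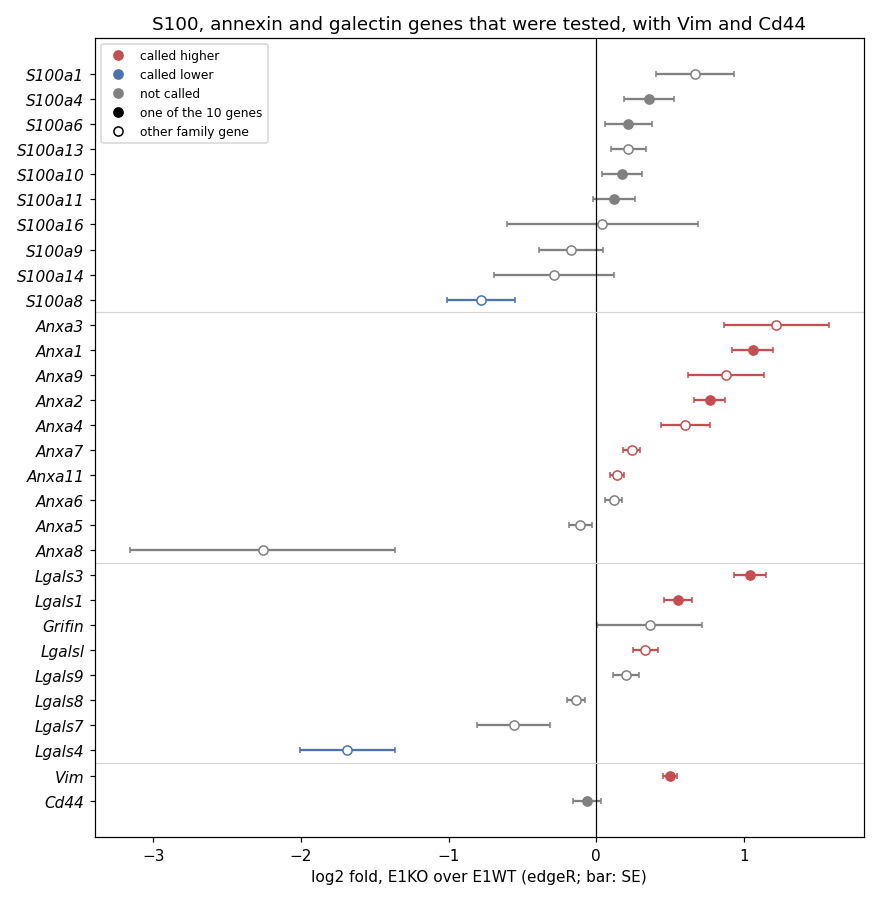
Log2 fold, E1KO over E1WT (x axis, bar for SE), of every tested S100, annexin and galectin gene and of Vim and Cd44, sorted by fold within a family. Filled circles are the 10 genes and open circles the other family genes; red marks genes called higher, blue those called lower and grey those not called. Red circles gather among the annexins and galectins, and no S100 gene is red.

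Among the other annexins, Anxa7, which is a GTP-binding annexin, rose and kept its call under all 17 alternatives. It had 65.3, 66.6, 72.2 and 70.4 CPM in E1KO and 58.6, 54.6, 56.7 and 52.5 CPM in E1WT libraries, with no overlap (log2 fold 0.24 ± 0.06, edgeR adjusted p = 0.011). Anxa4 (5.78 ± 1.04 and 3.64 ± 0.57 CPM in E1KO and E1WT libraries), Anxa9 (2.06 ± 0.43 and 1.07 ± 0.24 CPM) and Anxa3 (0.931 ± 0.25 and 0.384 ± 0.091 CPM) also rose, by 0.60 ± 0.17, 0.88 ± 0.26 and 1.22 ± 0.35 on the log2 scale. These 3 are low, and their calls ended under 5 of 17, 7 of 17 and 8 of 16 alternatives (edgeR adjusted p up to 0.091, 0.11 and 0.12). Single libraries whose removal ended the call were E1KO 3, E1WT 1, E1WT 3 and E1WT 4 for Anxa4, all but E1KO 4 and E1WT 3 for Anxa9, and all but E1KO 2 and E1WT 1 for Anxa3. Anxa11, at 179 ± 3.98 and 155 ± 4.53 CPM, was called at a log2 fold of 0.14 ± 0.05 (edgeR adjusted p = 0.048) and lost the call under 13 of the 17, without any 1 of the 8 libraries among them. Anxa6, the most abundant annexin in CPM at 679 ± 26.0 and 599 ± 18.4, had a log2 fold of 0.12 ± 0.06 (edgeR adjusted p = 0.15) and passed when libraries were scaled by total gene counts alone (0.023). Anxa5, the phosphatidylserine-binding annexin used to stain dying cells, had 62.6 ± 7.17 and 64.6 ± 2.25 CPM (log2 fold -0.11 ± 0.08, edgeR adjusted p = 0.34). It passed as lower with the exon-length trend removed (0.034). For Anxa8 the E1WT 3 library stood at 5.43 CPM and the other 7 at 0.121 to 1.18 CPM, and it did not pass (edgeR adjusted p = 0.092) except without the E1WT 2 library (0.034) or with E1KO 1 and E1WT 4 both left out (0.037).

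Among the other galectins, the galectin-like gene Lgalsl had 15.6 ± 0.60 CPM in E1KO and 11.9 ± 0.68 CPM in E1WT libraries and rose by 0.33 ± 0.08 on the log2 scale (edgeR adjusted p = 0.015). Its call ended with the replicate block (0.05075) and with E1KO 1 and E1WT 4 left out together (0.05136). Lgals4, an intestinal galectin that is rare in lymphocytes, fell, with 0.455 ± 0.16 against 1.42 ± 0.16 CPM (log2 fold -1.69 ± 0.32, edgeR adjusted p = 0.0032). Lgals9, a ligand of the coinhibitory receptor TIM-3, had 135 ± 17.5 and 112 ± 9.80 CPM (log2 fold 0.20 ± 0.09, edgeR adjusted p = 0.12) and passed without the E1KO 1 library (0.022) and without E1KO 1 and E1WT 4 together (0.030). The tandem-repeat galectin Lgals8 stood at 53.5 ± 3.30 and 56.2 ± 1.78 CPM (log2 fold -0.14 ± 0.06, edgeR adjusted p = 0.12) and passed as lower with the exon-length trend removed (0.043). Lgals7 and the lens gene Grifin were below 6 CPM in every library and did not pass.

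Outside the 4 above, the S100 family was low in these cells except for S100a13, a gene tied to the release of proteins without a signal peptide. It had 22.6, 21.9, 27.9 and 29.3 CPM in E1KO and 20.4, 24.1, 21.6 and 17.7 CPM in E1WT libraries (log2 fold 0.22 ± 0.12, edgeR adjusted p = 0.21). S100a8, which with S100a9 makes the calprotectin of neutrophils, was the S100 gene that fell, at 1.68 ± 0.49 against 2.78 ± 0.15 CPM (log2 fold -0.78 ± 0.23, edgeR adjusted p = 0.031). That call ended under 8 of the 17 alternatives, without any 1 library other than E1KO 1 among them (adjusted p up to 0.078). S100a9 stood at 3.32 ± 0.91 and 3.58 ± 0.74 CPM (edgeR adjusted p = 0.61). S100a1 was higher in all E1KO libraries, at 1.66 ± 0.28 against 0.993 ± 0.24 CPM, and did not pass (edgeR adjusted p = 0.089). S100a14 and S100a16 were below 1.2 CPM in every library. Of the listed family genes S100a5, Anxa10, Anxa13 and Lgals2 had 0 counts in all 8 libraries, which allows up to 0.0228 CPM over the E1KO and 0.0231 CPM over the E1WT libraries, for counting error only.

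The proteins that the products of these genes bind, or that bind them, were divided. Of 28 tested partner and receptor genes 6 rose and 7 fell, with a median log2 fold of -0.042, while over all genes tested 12.2% rose and 11.1% fell. Cd7, a galectin-1 receptor of T cells, rose by 0.74 ± 0.12, with 51.6 ± 8.01 against 29.5 ± 4.37 CPM, and Havcr2, which codes for the galectin-9 receptor TIM-3, rose by 1.31 ± 0.27, with 3.09 ± 0.96 against 1.19 ± 0.25 CPM. Lmna, the A-type nuclear lamin and like Vim an intermediate filament gene, rose by 0.59 ± 0.10. Hmmr, the hyaluronan-mediated motility receptor and a gene of dividing cells, rose by 0.53 ± 0.14 and lost the call without the E1KO 4 library (edgeR adjusted p = 0.061). Without that library 3 partner genes rose in place of 6. Spp1, a CD44 ligand, fell to 1.004 ± 0.34 CPM in E1KO libraries, against 4.48 ± 0.996 CPM in E1WT ones (log2 fold -2.21 ± 0.27, edgeR adjusted p = 0.00018). Ager, the receptor RAGE that S100 proteins engage, fell to 1.99 ± 0.49 CPM against 5.66 ± 1.07 CPM (log2 fold -1.57 ± 0.21). The glycoproteins Ptprc (CD45, -0.32 ± 0.05) and Cd2 (-0.31 ± 0.07) fell as well, and removing the exon-length trend ended the call of Ptprc (edgeR adjusted p = 0.082, log2 fold -0.13).

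Other genes of memory and effector T cells moved in both directions. Of 40 tested 13 rose and 8 fell, with a median log2 fold of 0.042, while over all genes tested 12.2% rose and 11.1% fell. Eomes, a T-box factor of memory and cytotoxic cells, rose to 46.8 ± 1.91 CPM in E1KO libraries, against 28.3 ± 1.64 CPM in E1WT ones (log2 fold 0.66 ± 0.07). Capg, an actin-capping protein, rose by 0.69 ± 0.07, the granzyme gene Gzmk by 1.37 ± 0.16 and the chemokine receptor gene Ccr2 by 0.62 ± 0.08. Fasl, the death ligand of activated T cells, fell to 4.65 ± 0.45 CPM against 10.1 ± 0.68 CPM (log2 fold -1.17 ± 0.11). Itgal, the alpha chain of LFA-1 (-0.58 ± 0.07), Maf (-0.50 ± 0.08) and the chemokine receptor gene Cxcr6 (-0.56 ± 0.09) fell too. All 8 of these kept an adjusted p under 0.05 in each of the 17 alternatives.

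Genes of naive T cells were divided as well. Of 22 tested 6 rose and 8 fell, with a median log2 fold of -0.14, while over all genes tested 12.2% rose and 11.1% fell. Among them were Igfbp4 (0.57 ± 0.05), Klf2, a factor that keeps T cells quiescent (0.31 ± 0.05), and Dapl1 (0.63 ± 0.16), which rose. The call of Dapl1 ended when E1KO 4 was left out (edgeR adjusted p = 0.054) or E1WT 1 was (0.05047), and without E1KO 4 the list had 3 risen genes in place of 6. Dgka (-1.37 ± 0.05), Satb1 (-0.42 ± 0.05), Tcf7 (-0.37 ± 0.05) and the kinase gene Txk (-0.33 ± 0.05) fell. Naive genes thus moved in both directions in the libraries where Lgals1, Lgals3, Anxa1, Anxa2 and Vim rose.

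Markers of other cells that make these genes moved in the same libraries, in which 12.2% of all genes tested rose and 11.1% fell. In bulk RNA, fewer cells of a type and less RNA per cell cannot be told apart. Of 13 tested monocyte and macrophage markers 6 rose and 2 fell, and the 14 genes summed to 221 to 246 CPM in E1KO and 152 to 160.1 CPM in E1WT libraries. Lyz2, the lysozyme of myeloid cells, stood at 59.1 ± 6.63 and 21.8 ± 3.16 CPM, and Csf1r, the receptor for macrophage colony-stimulating factor, at 11.2 ± 0.95 and 5.62 ± 0.83 CPM, while Cd14 was at 0.295 ± 0.18 and 0.245 ± 0.14 CPM. The 2 that fell were Cebpa, at 11.7 ± 1.29 CPM in E1KO and 18.98 ± 1.08 CPM in E1WT libraries, and C1qb, at 0.023 ± 0.031 and 0.452 ± 0.13 CPM. Of the dendritic cell markers 6 of 9 rose, Flt3 and Itgax among them, and the list summed to 31.0 to 36.1 CPM in E1KO and 14.97 to 19.1 CPM in E1WT libraries. Of 17 regulatory T cell markers 8 rose and 2 fell. Foxp3 stood at 121 ± 4.05 and 84.1 ± 4.05 CPM, and Il2ra at 140.3 ± 2.19 and 89.3 ± 3.53 CPM. Izumo1r fell (log2 fold -0.68), with means of 108.5 CPM in E1KO and 166.7 CPM in E1WT libraries. Gpr83 fell too (log2 fold -0.38), with means of 18.1 and 22.6 CPM. The 17 genes summed to 1131 to 1178 CPM in E1KO and 915 to 954 CPM in E1WT libraries. Plasma cell sums were 819 to 1028 CPM in E1KO and 528 to 752 CPM in E1WT libraries, mostly Jchain. Of 5 tested plasma cell markers Jchain was the 1 that rose, and 0 fell. Erythroid sums were 121 to 157 and 46.1 to 61.2 CPM, with Hbb-bs and Hba-a1 listed at 0. Most of that sum was Car1, at 105 ± 14.7 CPM in E1KO and 34.5 ± 6.24 CPM in E1WT libraries, and 4 of 6 tested erythroid markers rose and 0 fell. Platelet sums did not overlap either, at 8.07 to 10.4 CPM in E1KO and 5.12 to 7.57 CPM in E1WT libraries, mostly Itga2b, and 0 of 2 tested genes passed in edgeR or DESeq2 (1 higher at an unadjusted p under 0.05). Stromal and endothelial sums were 264 to 277 CPM in E1KO and 245 to 259 CPM in E1WT libraries, nearly all of it Pecam1, at 261 ± 6.95 and 244 ± 8.12 CPM. Of the 8 genes of that list 0 passed in edgeR or DESeq2 (1 lower at an unadjusted p under 0.05). The median log2 fold was -0.23. The fitted log2 folds of Col1a1, Col1a2, Col3a1 and Dcn lay between -1.52 and -0.49. Those of Pecam1, Pdgfrb, Cdh5 and Kdr were positive, at 0.033, 0.38, 0.36 and 1.02. CD4 T cell markers were the list that was lower, at 3156 to 3393 and 3497 to 3735 CPM, with 4 of 7 lower and 1 higher. The sums of B cell, CD8 T cell, neutrophil and NK cell markers overlapped between the titles, though single genes were called. Of 11 tested neutrophil markers Mpo rose, at 29.6 ± 1.92 CPM in E1KO and 23.5 ± 1.41 CPM in E1WT libraries. Ngp, S100a8 and Ltf fell. Of 7 B cell markers 2 rose and 1 fell, of 2 CD8 T cell markers 0 rose and 1 fell, and of 5 NK cell markers 1 rose and 0 fell. Which part these cells have in the levels of Lgals1, Lgals3, Anxa1, Anxa2 and Vim was not tested.

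**Figure D4:**
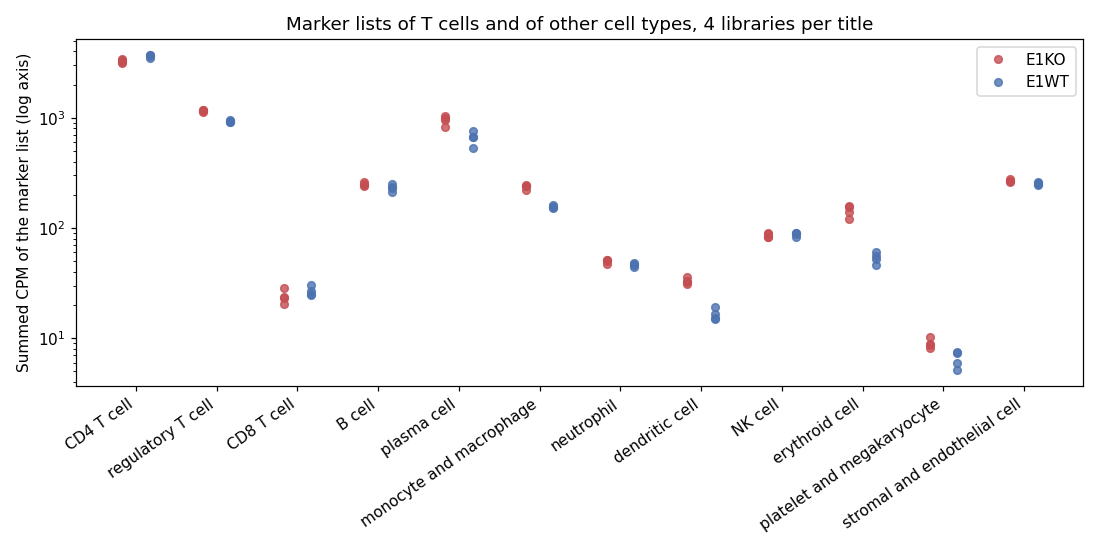
Summed CPM (log axis) of 12 marker lists in the 4 E1KO (red, left of each pair) and 4 E1WT (blue) libraries. Dendritic, erythroid, monocyte and macrophage, plasma cell, regulatory T cell, platelet and megakaryocyte, and stromal and endothelial sums are higher in all E1KO libraries. The CD4 T cell sum is lower.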

How the data were processed

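The deposited files hold raw read counts per gene symbol, which the authors made from paired reads of 75 bp out of libraries from 50 ng of RNA, per the labels' protocols. TopHat2 2.1.0, HTSeq 0.9.1 and mm10 are named in the submitters' processing notes. No source used here gives the annotation, strand setting or filters. The 5 closing rows that name no gene (28.2% to 37.0% of a file's counts) were left out. They include reads aligned to several places, so a gene with a near-identical copy may be undercounted. Exons of S100a4 share 302 bp with the gene Gm42674 and those of Anxa2 share 98 bp with an antisense gene, neither of which has a row of its own.

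Libraries were grouped by title. CPM is relative to a library's gene counts. All 8 libraries entered edgeR 4.0.16 (R 4.3.3) (TMM scaling, default filter with a count minimum of 10, quasi-likelihood test, Benjamini-Hochberg adjustment over 13333 genes at 0.05). Log2 folds are on the TMM scale, E1KO over E1WT, with SE derived from the F statistic, and intervals are 95%. P-values measure the spread between libraries, which may be technical, as the labels do not say that they came from separate animals. All replicate pairs differed beyond sampling noise (chi-square per degree of freedom 4.20 to 64.4). The test was checked on simulated data.

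The 10 genes and all lists were chosen with earlier results of these data known, so counts over lists are descriptions. Named are the 10 genes, all detected S100, annexin and galectin genes, up to 4 called genes per direction of the other lists, and the first 2 markers of lists whose sums did not overlap. One gene that this rule names is not reported here. Cd14, Cebpa, C1qb, Izumo1r, Gpr83, Car1, Hbb-bs, Hba-a1, Itga2b, Pecam1, Pdgfrb, Cdh5, Kdr, Dcn, Col3a1, Mpo, Ngp and Ltf were named after their values were seen. Exon lengths come from GENCODE M21 (GRCm38, the assembly of mm10), where 23376 symbols matched by name, 670 by an older symbol and 375 did not match. Alternatives were DESeq2 size factors, total gene counts, other filters, DESeq2 1.42.0, limma-voom (limma 3.58.1), a replicate block, removal of a per-library exon-length trend, and libraries left out.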

Additional observations from a re-analysis of the deposited data

How the results depend on the processing

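Lgals1, Lgals3, Anxa1, Anxa2 and Vim kept their direction and an adjusted p under 0.05 in each of 17 alternatives, so 5 or 6 of the 10 genes rose and 0 fell. The sixth was S100a4. Leaving out 1 library at a time gave 5 to 6 risen members, 2 to 4 risen and 1 to 2 fallen other family genes (6 and 2 with all libraries), 3 to 6 risen partner genes and 3 to 7 risen naive genes. The other family genes that rose numbered 3 with the replicate block and 2 with E1KO 1 and E1WT 4 left out together. Signs turned for Cd44 without E1WT 4 (log2 fold 0.030, with -0.13 to 0.030 over the libraries left out in turn), for Grifin without E1KO 3 (-0.0094, with -0.0094 to 0.51) and for the low S100a16, which had 0.041 as reported, -0.4454 in limma-voom, -0.22 with the block and -0.82, -0.12 and -0.12 without E1KO 1, E1WT 1 or E1WT 3 (-0.82 to 0.41). The cause of these changes was not tested. With total gene counts as the scale, 2257 genes were higher and 1046 lower (68.3% of calls higher, against 52.2% with TMM), and the median log2 fold of all genes was 0.069. Same-numbered libraries did not deviate together (correlations -0.099 to 0.014 over 4 pairs, and 0 of 4 E1KO-titled libraries matched their own number best), so the numbers were not taken as pairs; with the block all genes called were 1151 higher and 1005 lower. Under TMM scaling the ratios of summed markers, E1KO over E1WT, moved by less than their spread except for regulatory T cells (1.19, against 1.24) and stromal cells (1.02, against 1.06). Depth limits low genes such as S100a16.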

Other observations

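The S100 genes of chromosome 3 lie in a dense cluster (GRCm38), of which the listed genes are described here. S100a1 begins at 90511034 and S100a9 ends at 90695721, and between them S100a13 (20.9 to 25.4 CPM as title means), S100a4 and S100a6 stood above 10 CPM, while S100a3, S100a5 and S100a7a were at or below 0.655 CPM in every library. S100a5 lies between S100a4 and S100a6, from 90608523 to 90611780, and had 0 counts. S100a11 and S100a10 sit apart from this cluster, from 93520488 to 93564643.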
